A study of Rattus norvegicus with 8 samples.

Results

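Kinesins are molecular motors that use ATP to walk along microtubules, or to take them apart at their ends. Some build the mitotic and meiotic spindle and the midbody that links dividing cells, some carry vesicles and organelles, and some move material along cilia and the flagellum of sperm. Male germ cells meet all of these tasks in turn, as dividing spermatogonia, as spermatocytes that go through the meiotic divisions, and later as spermatids that grow a tail. The kinesin motor genes described here are the symbols of the count table made of Kif, or Kifc, and a number with at most the letter a, b or c. The choice rests on the name alone, and it gave 32 of 16764 symbols, all of which passed the filter on low counts. Kif4a, Kif6, Kif7, Kif14, Kif17, Kif1a, Kif21a, Kif24 and Cenpe are not among the symbols of the count table used, and are not analysed here. Kif28p is a symbol of the table, but the rule on names leaves it out.

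RNA sequencing compared 3 groups of male germ cells of the Brown Norway rat, with 2 libraries each. USg are undifferentiated spermatogonia of a cell line kept in SG medium, taken at day 0, before plating on laminin. DSg are cells of the same line 7 days after plating on laminin, with 120 h spent in SD medium. This medium differs by added all-trans-retinoic acid and the growth factor neuregulin-1. Spc are primary testis germ cells that did not attach to plastic, collagen-I or laminin, enriched in this way for spermatocytes and kept for 2.5 days in medium with 10% fetal bovine serum. Source, selection and medium of Spc therefore differ together with stage from those of the line and cannot be told apart. The titles of the USg and DSg libraries both carry T120, so it is not settled whether they were matched for time. The labels call the libraries of the line replicate cultures and do not say what separates those of Spc, so p-values measure only the spread between these libraries.

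Libraries held 2657291 to 5697165 counts, and kinesin genes took 0.314% to 0.426% of them. Spermatocyte markers summed to 8063 and 8898 CPM (counts scaled to a common library size by TMM factors) in Spc and to 574 to 1294 in the line, and 11 of 12 rose in Spc against USg. The summed level of 9 undifferentiated spermatogonia markers was 1732 and 2041 CPM in USg, 318 to 328 in DSg and 191 to 207 in Spc. Of these, 8 fell in Spc against USg and 1, Id4, rose. Id4 was at 49.0 and 47.4 CPM in USg, 19.8 and 13.2 in DSg, and 140 and 118 in Spc, most of the sum there. Of 6 differentiating spermatogonia markers, Kit alone was called in DSg against USg, at 86.0 and 63.2 CPM in USg and 597 and 562 in DSg. Markers of somatic testis cells were also higher in Spc than in USg. Of those tested, 5 of 9 Sertoli, 8 of 10 peritubular and stromal, 6 of 7 macrophage and blood, and 2 of 4 Leydig markers rose. Of all genes, 17.9% rose. No gene of these lists was at 0 in Spc. Their sums in Spc were 1162 to 1396, 2832 to 2971, 149 to 151 and 182 to 187 CPM, against 229 to 468, 289 to 565, 7.68 to 35.8 and 5.40 to 28.3 in the line. Spermatid markers summed to 52.0 to 73.8 CPM in all libraries, but of 5 tested, 2 rose and 2 fell in Spc against USg. Acr, the sperm protease acrosin, was at 0 and 0.890 CPM in USg, 0 and 3.77 in DSg, and 33.1 and 41.6 in Spc. The other marker that rose was Spata18, and those that fell were Spaca1 and Tnp1. The part of other cells in the kinesin differences was not tested, and in such bulk RNA fewer cells of a type and less RNA per cell cannot be told apart. The share of ribosomal RNA was 7.81% for USg 1, 12.4% for DSg 1 and at most 0.733% for the others. In DSg 2, 96.7% of 1045 olfactory receptor genes had a count, at a mean of 1.31 CPM, against 0.128 to 0.293 CPM elsewhere. Between replicates, 15 kinesin genes of USg, 10 of DSg and 5 of Spc differed by more than 1.5-fold.

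The summed kinesin level changed little among the groups, while single motors changed in both directions. The 32 genes summed to 3491 and 3513 CPM in USg, 3964 and 3485 in DSg, and 3285 and 3447 in Spc. From USg to DSg, Kif1b rose and Kif19 fell at an adjusted p under 0.05, against 0.565% of all genes tested that rose and 1.92% that fell. In Spc against USg, 6 kinesin genes rose and 8 fell, where 17.9% of all genes rose and 16.6% fell. In Spc against DSg, Kif3b rose and 6 genes fell, where 14.8% of all genes rose and 11.7% fell. The kinesin genes called in either direction were thus 6.25%, 43.8% and 21.9% of the family in these comparisons, beside 2.48%, 34.5% and 26.5% of all genes tested, so these shares say nothing particular of the family as a whole. The median log2 fold change was 0.19 for kinesin genes in DSg against USg, where it was 0.01 over all genes. In Spc it was -0.28 against USg and -0.28 against DSg, where it was -0.04 and -0.03 over all genes. Each pair of comparisons shares a group of libraries, so a gene called in both Spc comparisons is not called on separate Spc libraries. Against a change of 2-fold, rather than none, Kif1b, Kif3b and Kif27 remained higher and Kif19, Kif21b and Kif26a lower in Spc against USg. Kif3b and Kif21b remained against DSg, and no member did in DSg against USg. In all, 15 members changed in at least 1 comparison and 17 in none. Libraries of both groups did not overlap for 9 higher and 12 lower members in Spc against USg, beside 37.1% and 35.3% of all genes, and for 11 and 13 in Spc against DSg, beside 36.6% and 34.6%. In DSg against USg these were 9 and 3, beside 21.2% and 21.1%.

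**Figure D1:**
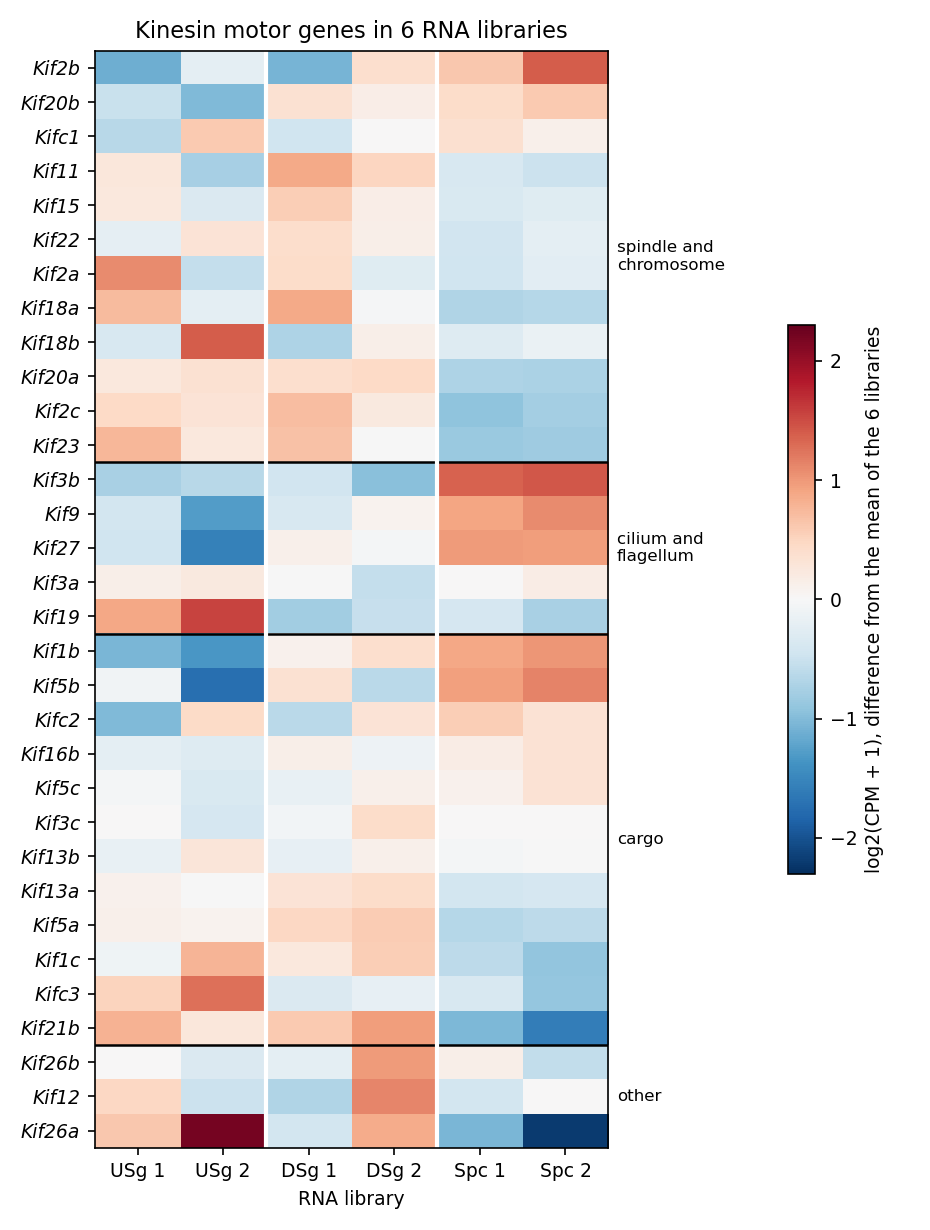
Heat map of the 32 kinesin motor genes (rows, by role) in the 6 RNA libraries (columns). Colour is log2(CPM + 1) minus the mean of the gene's 6 libraries, red above and blue below. Kif20b, Kif3b, Kif9, Kif27, Kif1b and Kif5b are red in both Spc libraries, while Kif23, Kif2c, Kif20a, Kif21b and Kif26a are blue in both.

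**Figure D2:**
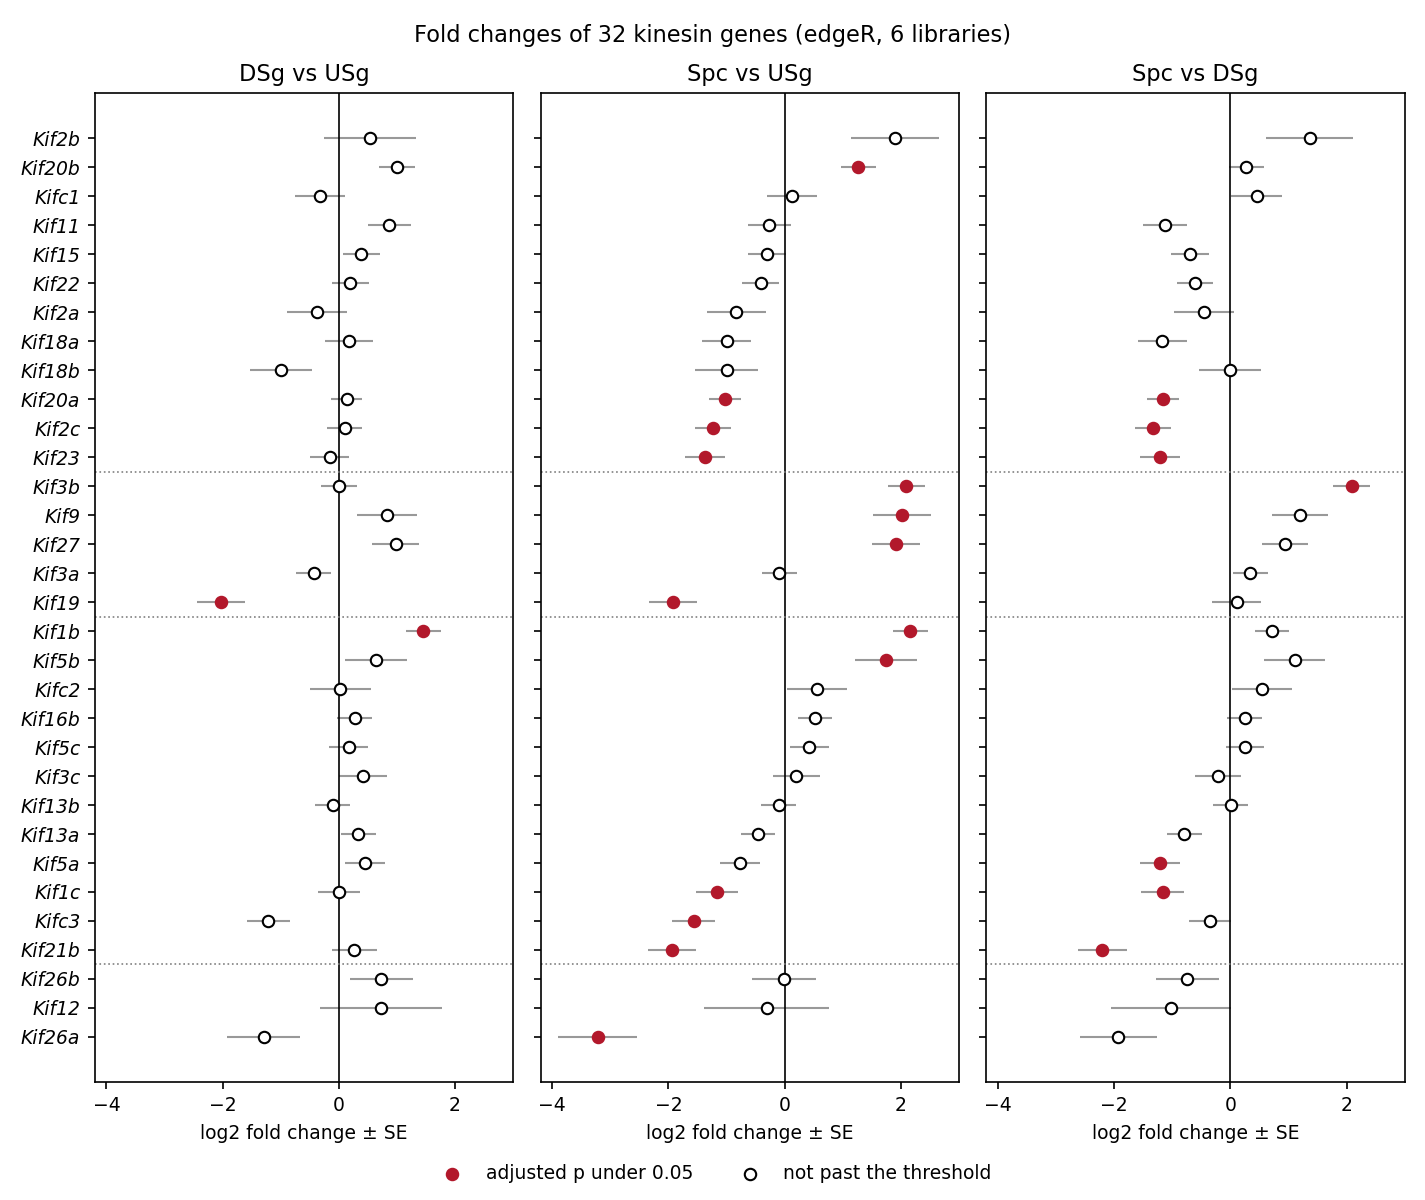
Log2 fold changes ± SE (x axes) of the 32 kinesin genes (rows, by role) in the 3 comparisons (panels), from edgeR. Filled red points passed an adjusted p of 0.05 and open points did not. DSg against USg holds 2 filled points, Spc against USg 14 and Spc against DSg 7, on both sides of 0.

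The sequences before the annotated starts are shown for pairs of related motors, chosen because their calls in Spc differed. No test compared the members of a pair with each other. Kif20b and Kif23 both belong to the kinesin-6 family, which acts in the last steps of cell division. In Spc against USg, Kif20b rose and Kif23 fell. Kif20a, of the same family, fell as well and is not shown. Kif3a and Kif3b code for the partners of one heterodimer, of which Kif3b rose and Kif3a was not called. The stretches are the 250 bases before each start, read from 5′ to 3′ on the strand of the gene, from RefSeq on assembly GRCr8: Kif20b at chr1:241840766-241841015 (+), Kif23 at chr8:71320585-71320834 (-), Kif3a at chr10:38226520-38226769 (+) and Kif3b at chr3:162218438-162218687 (+). Capitals mark letters of motifs that a search on both strands found. These are the CHR with the letters TTTGAA, an element known from genes expressed late in the cell cycle, the CCAAT box, which reads ATTGG on the opposite strand, and the RFX motif with the letters GTTGCCA, named for factors that act on cilium genes.
Kif20b: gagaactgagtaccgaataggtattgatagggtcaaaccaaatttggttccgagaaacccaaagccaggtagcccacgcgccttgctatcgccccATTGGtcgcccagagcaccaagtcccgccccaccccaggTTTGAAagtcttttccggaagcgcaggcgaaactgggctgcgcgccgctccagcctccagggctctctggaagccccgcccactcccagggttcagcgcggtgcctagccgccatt
Kif23: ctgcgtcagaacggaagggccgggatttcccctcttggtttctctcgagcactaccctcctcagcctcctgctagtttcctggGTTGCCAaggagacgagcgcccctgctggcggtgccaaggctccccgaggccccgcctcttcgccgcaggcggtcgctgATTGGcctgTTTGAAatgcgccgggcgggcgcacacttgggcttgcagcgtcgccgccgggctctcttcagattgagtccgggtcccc
Kif3a: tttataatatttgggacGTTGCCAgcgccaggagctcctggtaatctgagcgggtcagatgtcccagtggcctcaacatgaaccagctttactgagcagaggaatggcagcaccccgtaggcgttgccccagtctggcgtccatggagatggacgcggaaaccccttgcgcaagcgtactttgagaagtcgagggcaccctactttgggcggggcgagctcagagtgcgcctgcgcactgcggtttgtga
Kif3b: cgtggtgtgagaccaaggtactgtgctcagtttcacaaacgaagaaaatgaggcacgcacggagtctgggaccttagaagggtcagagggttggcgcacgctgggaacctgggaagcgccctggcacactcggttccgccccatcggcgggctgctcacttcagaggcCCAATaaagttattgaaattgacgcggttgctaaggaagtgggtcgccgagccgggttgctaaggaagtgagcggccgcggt

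Kif20b and Kif23, which moved apart in Spc, carried the same pair of motifs in this stretch. Counted from the annotated start, the CCAAT box began at position -155 and the CHR at -116 in Kif20b. Further CHR matches of Kif20b, at positions 1 and 7, lie after the start and outside the stretch shown. In Kif23 the CCAAT box began at -88 and the CHR at -79, and an RFX motif at -167. Kif20a, which fell in Spc like Kif23, had CCAAT boxes at -220, -125 and -98 and no match to the CHR. Kif3a had an RFX motif at -233 and no CCAAT box, while Kif3b had a CCAAT box at -82 and no match to GTTGCCA. Only the letters given for each motif were searched for, so other forms of it were not looked for. Promoters were given for 24 of the 32 members, as windows of 300 bases that run to 50 bases after the start. The CHR was in 5 of 11 windows of spindle and chromosome motors (Kif15, Kif20b, Kif22, Kif23 and Kifc1) in 0 of 7 of cargo and 0 of 4 of cilium motors, and in 1 of 2 of the other motors (Kif26b). That made 6 of 24 kinesin windows (25.0%), beside 19.4% of all 27457 promoters. The CCAAT box was in 6 of 11, 2 of 7, 1 of 4 and 1 of 2 windows, or 10 of 24 (41.7%), beside 39.6% of all. The RFX motif was in 4 windows (Kif3a, Kif9, Kif18a and Kif23), beside 4.86% of all. The cyclic AMP response element with the letters TGACGTCA was in 3 (Kif15, Kif18a and Kif5c), beside 2.00%, and the E2F motif with the letters TTTNNCGC was in that of Kif18a, beside 5.48%. The matches in the printed stretches do not overlap each other, and a match describes letters only, not a bound site.

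Of the 12 spindle and chromosome motors, 3 fell in Spc against both USg and DSg (Kif23, Kif2c and Kif20a), and 1 rose against USg (Kif20b), which left 8 and 9 not called. Their median log2 fold change was -0.62 in Spc against USg and -0.65 against DSg. None was called between DSg and USg, where the median was 0.16. Their summed level was 2082 and 1833 CPM in USg, 2441 and 1965 in DSg, and 1379 and 1463 in Spc, so both Spc libraries lay below all 4 of the line.

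Kif23 (MKLP1), a subunit of the centralspindlin complex that bundles microtubules at the midzone of dividing cells, was at 402 and 281 CPM in USg, 377 and 235 in DSg, and 129.7 and 135 in Spc. Both Spc libraries lay below the 4 of the line, whose replicates differed widely. The log2 fold change of Spc was -1.37 ± 0.34 (SE) against USg (adjusted p = 0.0151, edgeR's quasi-likelihood test) and -1.21 ± 0.34 against DSg (adjusted p = 0.0306). Kif2c (MCAK), which takes microtubules apart at centromeres and so corrects faulty attachments, was at 176 and 158 CPM in USg, 209 and 149 in DSg, and 67.2 and 74.2 in Spc. Its changes of -1.24 ± 0.31 (adjusted p = 0.0148) and -1.34 ± 0.31 (adjusted p = 0.0139) were alike in size. Kif20a (MKLP2), which brings the chromosomal passenger complex to the midzone, was at 233 and 249 CPM in USg, 259 and 272 in DSg, and 119.6 and 118 in Spc. The replicates of Kif20a lay close together in every group, and Spc was lower by -1.02 ± 0.28 (adjusted p = 0.0202) and -1.16 ± 0.28 (adjusted p = 0.0156) on the log2 scale. Its annotated span overlaps that of Cdc23, which read 135 and 71.2 CPM in USg, 166 and 105 in DSg and 56.8 and 52.0 in Spc, and the strand setting of the counts is not given. With 1 library of Spc left out, none of these 3 genes passed in Spc against USg (adjusted p from 0.141 to 0.327) or against DSg (0.188 to 0.327). Against USg, Kif23 was also lost without USg 1 (0.0508) and Kif20a without USg 2 (0.0586). Against DSg, Kif23 (-0.65, 0.211), Kif2c (-0.90, 0.097) and Kif20a (0.0693) were lost without DSg 1, and Kif20a without DSg 2 (0.0541). Without a filter on low counts, Kif20a was lost in both comparisons (0.0637 and 0.0844) and Kif23 against DSg (0.0572).

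Kif20b (MPP1, or KRP1), a kinesin-6 motor that acts in the completion of cytokinesis, was higher in the later groups. It was at 176 and 123 CPM in USg, 319.6 and 277 in DSg, and 337 and 383 in Spc. Both DSg and both Spc libraries lay above USg, and Spc lay above DSg by less than the test could call. The log2 fold change was 1.27 ± 0.31 in Spc against USg (adjusted p = 0.0128), 1.00 ± 0.31 in DSg against USg (adjusted p = 0.131) and 0.27 ± 0.30 in Spc against DSg (adjusted p = 0.533). The call in Spc against USg was lost without USg 2 (0.0618), Spc 1 (0.105) or Spc 2 (0.173). The ratio of Kif20b to Kif23 counts within a library was 0.436 and 0.439 in USg, 0.849 and 1.18 in DSg, and 2.60 and 2.85 in Spc. Kif20b made up 21.6% and 18.9% of the counts of the 3 kinesin-6 genes in USg, 33.5% and 35.4% in DSg, and 57.5% and 60.3% in Spc. These shares compare counts between genes without their lengths, so it is their change among groups that can be read, not the order of the genes.

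**Figure D3:**
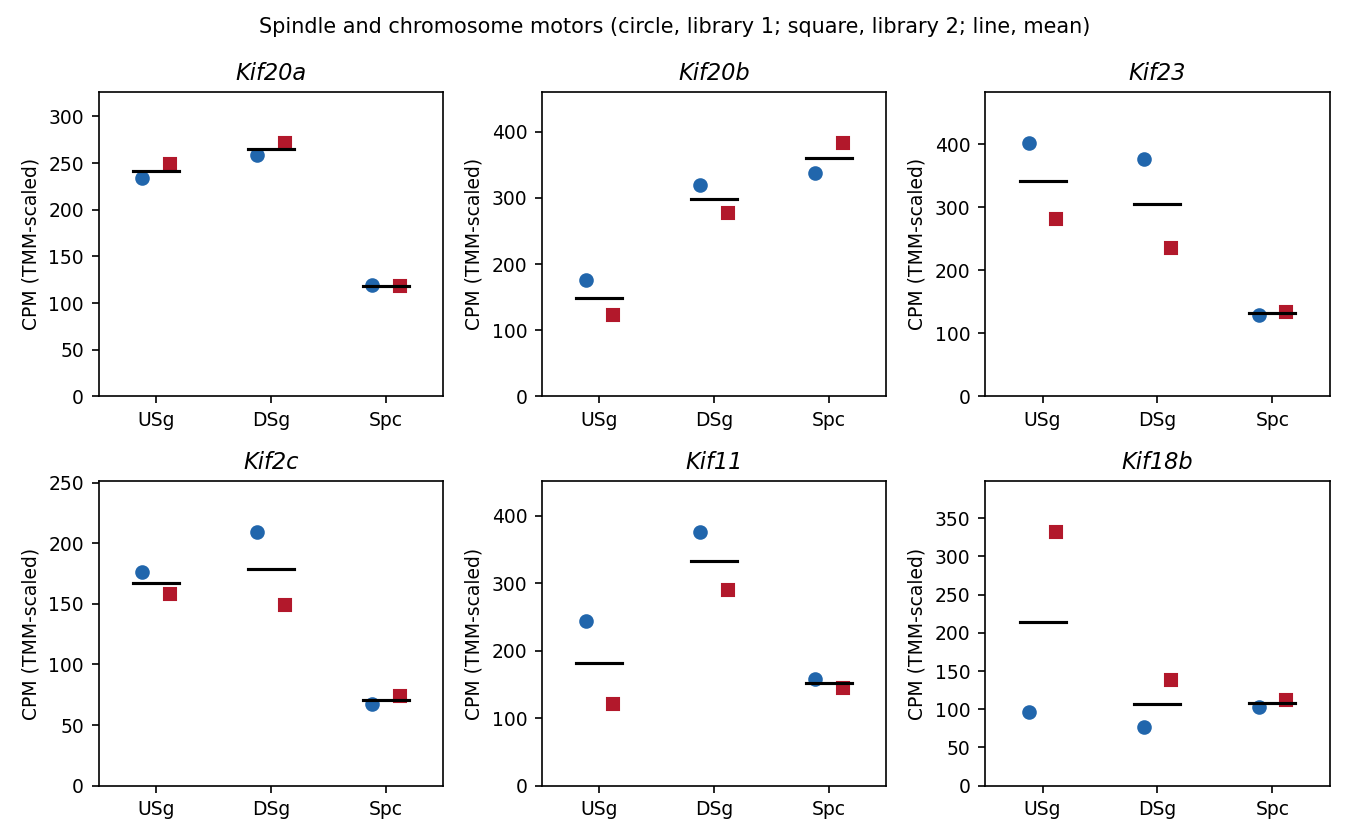
Levels of 6 spindle and chromosome motors in TMM-scaled CPM (y axes, from 0) by group (x axes). Circles are library 1, squares library 2 and lines the mean of 2. Kif20a, Kif23 and Kif2c lie lowest in both Spc libraries, Kif20b lies highest there, and Kif18b spans 96.9 to 332 CPM within USg alone.

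The remaining spindle and chromosome motors gave no call. Kif11 (Eg5), which pushes the spindle poles apart, was at 244 and 120.4 CPM in USg, 376 and 289 in DSg, and 158 and 145 in Spc. It was highest in both DSg libraries, and its change of -1.13 ± 0.38 in Spc against DSg lay just outside the threshold (adjusted p = 0.0547). That change was called in 10 of 18 alternative settings, among them DESeq2 (0.0262) and limma-voom (0.0455). The annotated span of Kif11 overlaps that of Ide, which read 160 and 91.5 CPM in USg, 222 and 136 in DSg, and 176 and 170 in Spc. Kif15, which can share the work of Kif11, was at 222 and 149, 279 and 207, and 146 and 154 CPM in USg, DSg and Spc, with -0.69 ± 0.32 in Spc against DSg (adjusted p = 0.144). Kif18a, which dampens chromosome movements at the plate, was at 169.8 and 87.4 CPM in USg, 189 and 101 in DSg, and 63.5 and 64.9 in Spc. Both Spc libraries of Kif18a were below all others, but the log2 fold change of -1.17 ± 0.42 against DSg was not called (adjusted p = 0.0714), nor was that against USg (adjusted p = 0.0982). The change against DSg was called in 8 of 18 alternatives. Its relative Kif18b differed 3.43-fold between the USg libraries, at 96.9 and 332 CPM, and was at 76.8 and 138 in DSg and 103 and 113 in Spc. The motors Kif22 and Kifc1, which move chromosome arms and focus spindle poles, ranged from 102 to 185 and from 37.8 to 91.2 CPM over the 6 libraries, and Kif2a, a microtubule depolymerase like Kif2c, from 64.1 to 201 CPM. Kif2b had few counts, with 4 and 21 counts in USg, 4 and 23 in DSg, and 38 and 62 in Spc. Its rise of 1.90 ± 0.77 against USg was not called (adjusted p = 0.0844).

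Of 21 tested proteins that work with these motors, 1 rose and 2 fell in Spc against USg, where 17.9% of all genes rose and 16.6% fell. Against DSg the counts were also 1 and 2, beside 14.8% and 11.7% of all genes. The kinase Plk1, which acts through several mitotic kinesins, was at 128 and 261 CPM in USg, 114 and 101 in DSg, and 36.9 and 36.4 in Spc, a log2 fold change of -2.41 ± 0.39 against USg (adjusted p = 0.0021). Aurkb, the mitotic kinase of the passenger complex, fell from 138 and 170.4 CPM in USg to 37.6 and 43.5 in Spc (-1.93 ± 0.32, adjusted p = 0.00215). Aurkc, its relative known from meiosis, rose from 1.54 and 2.49 CPM in USg and 5.25 and 7.81 in DSg to 42.2 and 38.1 in Spc (4.23 ± 0.48 against USg, adjusted p = 4.11e-04). The Aurkb change against USg was lost without Spc 1 (0.0508). A list of 20 proliferation genes, which holds no kinesin gene, had 11 members (55%) lower and 2 (10%) higher in Spc against USg. Of all genes, 16.6% were lower and 17.9% higher. The list members that rose were Top2a (1.07 ± 0.28, adjusted p = 0.0192) and Bub1 (1.42 ± 0.35, adjusted p = 0.0145). Those that fell were Mcm2, Mcm3, Mcm4, Mcm5, Mcm6, Mcm7, Rrm1, Rrm2, Tyms, Tk1 and Ccnb1. Mki67 was not called (0.46 ± 0.30, adjusted p = 0.259). The list summed to 5104 to 6111 CPM in the line and 4399 and 4658 in Spc. The part of the share of dividing cells in the fall of Kif23, Kif2c and Kif20a was not tested.

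Among the 5 motors of cilia and the flagellum, 3 rose in Spc against USg (Kif3b, Kif9 and Kif27) and 1 fell (Kif19). Their median log2 fold change was 1.92 in that comparison, 0.94 in Spc against DSg, where Kif3b alone was called, and 0.01 in DSg against USg, where Kif19 alone was called. In sum they reached 674 and 719 CPM in Spc and 311 to 442 in the line.

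Kif3b rose in Spc against both groups of the line. Kif3a and Kif3b form the motor of kinesin-2, which carries building material towards the tip of cilia, and Kifap3 is the accessory subunit of this complex. Kif3b was at 59.0 and 63.9 CPM in USg, 73.5 and 50.4 in DSg, and 256 and 269 in Spc. The 4 libraries of the line overlapped, and both Spc libraries were well above them. The log2 fold change was 2.09 ± 0.32 in Spc against USg (4.26-fold, adjusted p = 0.00157) and 2.09 ± 0.32 against DSg (adjusted p = 0.00237), and both calls were kept in all 18 alternatives. Kif3a, its partner, was at 286 and 306 CPM in USg, 259.8 and 178 in DSg, and 261 and 294 in Spc. Kif3a gave -0.09 ± 0.30 in Spc against USg (adjusted p = 0.834) and 0.34 ± 0.30 against DSg (adjusted p = 0.425), so no change was detected beyond the replicate spread. The ratio of Kif3a to Kif3b counts was 4.84 and 4.78 in USg, 3.53 and 3.53 in DSg, and 1.02 and 1.09 in Spc. Gene lengths were not used, so its change among groups can be read, but not the amount of one partner against the other. Kif3c, which can take the place of Kif3b beside Kif3a and is counted here with the cargo motors, stayed between 11.4 and 20.7 CPM. Kifap3 was at 79.9 and 61.3 CPM in USg, 118 and 65.4 in DSg, and 154 and 145 in Spc, and its rise of 1.08 ± 0.36 against USg (adjusted p = 0.0458) was lost without USg 1 (0.0648), USg 2 (0.162), Spc 1 (0.291) or Spc 2 (0.223), and without a filter (0.0566).

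**Figure D4:**
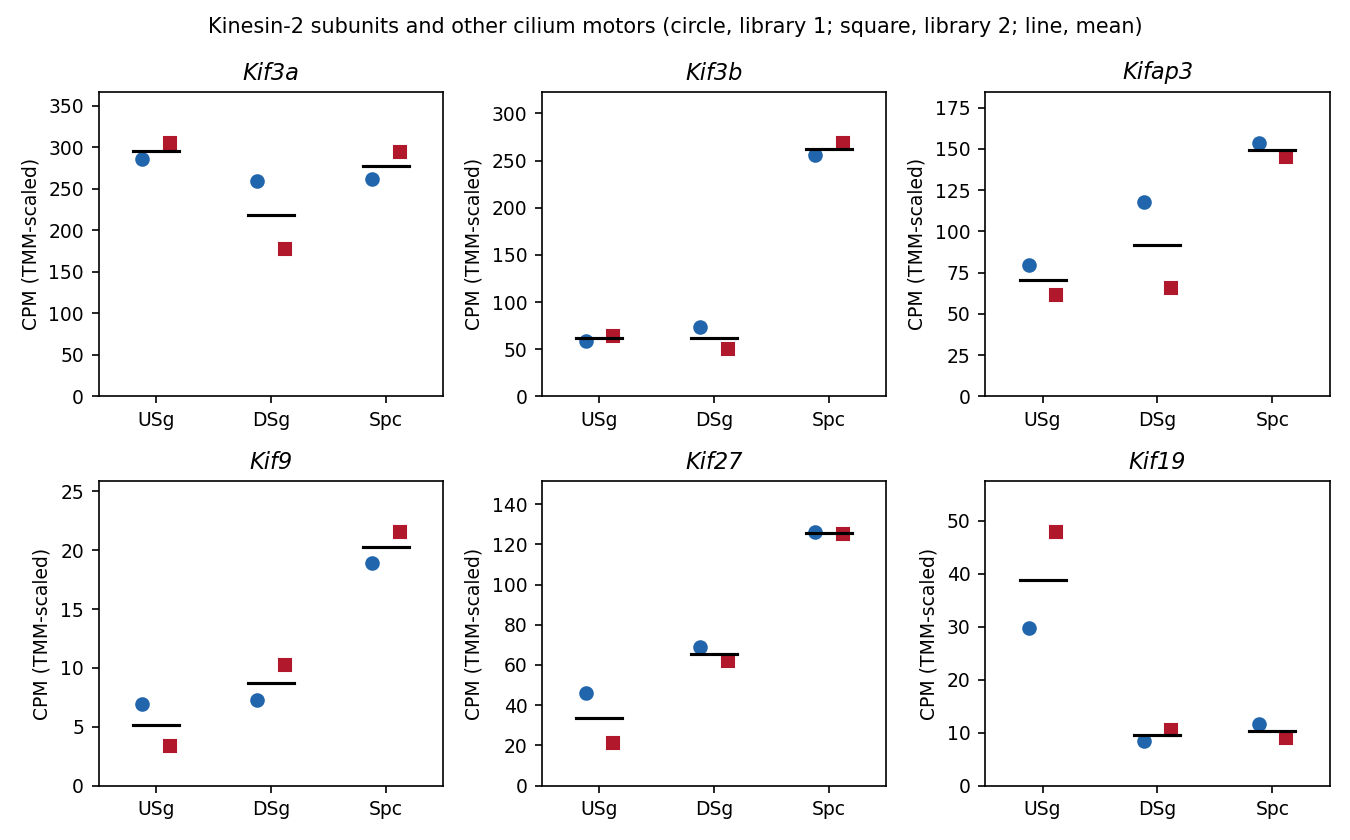
Levels of the kinesin-2 subunits Kif3a, Kif3b and Kifap3 and of Kif9, Kif27 and Kif19 in TMM-scaled CPM (y axes, from 0) by group (x axes). Circles are library 1, squares library 2 and lines the mean of 2. Kif3b stands at 256 and 269 CPM in Spc against 50.4 to 73.5 in the line, whereas Kif3a stays within 178 to 306 CPM.

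Kif9, a motor of the central apparatus of motile flagella, was at 6.95 and 3.38 CPM in USg, 7.27 and 10.2 in DSg, and 18.9 and 21.6 in Spc. Both Spc libraries were highest, with 2.02 ± 0.51 against USg (adjusted p = 0.0151) and 1.19 ± 0.49 against DSg (adjusted p = 0.100). Kif9 overlaps Setd2 in the annotation, whose level of 225 to 352 CPM in USg, 404 to 479 in DSg and 568 to 664 in Spc was ordered in the same way, so that the source of the Kif9 counts is uncertain. Without Spc 2 the Kif9 call was lost (0.084). Kif27, related to the hedgehog regulator Kif7 and known for the central pair of motile cilia, was at 46.3 and 21.0 CPM in USg, 69.1 and 61.9 in DSg, and 126 and 125 in Spc. The groups of Kif27 did not overlap, and the rise of 1.92 ± 0.41 in Spc against USg (adjusted p = 0.00706) was kept in all 18 alternatives. The steps of 0.98 ± 0.40 in DSg against USg (adjusted p = 0.234) and 0.94 ± 0.39 in Spc against DSg (adjusted p = 0.109) were not called. GRCr8 holds a further gene model, Kif27l1, that overlaps Kif27, so reads shared with a copy could not be told apart.

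Kif19 ran the other way. Its product, known for trimming microtubules at the tips of motile cilia, was highest in USg, at 29.7 and 47.9 CPM, with 8.48 and 10.5 in DSg and 11.6 and 8.93 in Spc. Both other groups lay below USg and overlapped each other. The log2 fold change was -2.03 ± 0.42 in DSg against USg (adjusted p = 0.045) and -1.92 ± 0.41 in Spc against USg (adjusted p = 0.00719), and 0.11 ± 0.42 in Spc against DSg (adjusted p = 0.869). The DSg call was lost without USg 2 (-1.70, 0.0641), DSg 1 (0.122) or DSg 2 (0.215), with scaling by the upper quartile (0.0637) or by total counts (0.0901), a filter of 5 CPM (0.0518), limma-voom (0.0586) or only the 4 libraries (0.117), and the Spc call without Spc 2 (0.085). Btbd17, which overlaps Kif19 in the annotation, was at 3.09 and 14.1 CPM in USg and at most 4.58 in the other libraries.

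The 12 cargo motors divided evenly about 0 in Spc. Against USg, 2 rose (Kif1b and Kif5b) and 3 fell (Kif21b, Kifc3 and Kif1c), with a median log2 fold change of 0.05. Against DSg none rose and 3 fell (Kif21b, Kif5a and Kif1c), with a median of -0.10. Kif1b alone was called in DSg against USg, where the median was 0.27. The summed level was 893 and 1003 CPM in USg, 1060 and 1094 in DSg, and 1196 and 1246 in Spc.

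Kif1b, a kinesin-3 motor of mitochondria and of synaptic vesicle precursors, was the 1 member that rose in DSg and again stood above USg in Spc. It was at 66.4 and 54.0 CPM in USg, 148 and 179.9 in DSg, and 257 and 281 in Spc, with no overlap between groups. The log2 fold change was 1.45 ± 0.30 in DSg against USg (adjusted p = 0.0446), 2.16 ± 0.30 in Spc against USg (adjusted p = 0.00109) and 0.71 ± 0.29 in Spc against DSg (adjusted p = 0.104). The change in Spc against USg was kept in all 18 alternatives. That in DSg was lost without USg 2 (0.141), DSg 1 (0.120), DSg 2 (0.215), Spc 1 (0.148) or Spc 2 (0.133), without a filter (0.0575) and with only the 4 libraries compared (0.141).

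Kif5b, the broadly expressed heavy chain of kinesin-1, was at 179 and 56.8 CPM in USg, 242 and 124 in DSg, and 369 and 419 in Spc. Both Spc libraries were highest, and within USg and DSg library 1 stood well above library 2. The change was 1.75 ± 0.54 against USg (adjusted p = 0.0342) and 1.11 ± 0.53 against DSg (adjusted p = 0.152), and the first was lost without USg 2 (1.15, 0.0936) and with only the 4 libraries compared (0.0518). Kif5a, a heavy chain best known from neurons, was at 21.6 and 20.8, 27.9 and 29.9, and 12.2 and 12.6 CPM in USg, DSg and Spc. Its change of -1.22 ± 0.35 in Spc against DSg (adjusted p = 0.0321) was lost without DSg 1 (0.0972), DSg 2 (0.0898), Spc 1 (0.376) or Spc 2 (0.322), and without a filter (0.111). Kif5c, the remaining heavy chain, ranged from 28.0 to 45.5 CPM. Kif5b thus held 87.9% and 87.8% of the counts of the 3 heavy chain genes in Spc, and 53.8% to 80.3% in the line.

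Of the light chains, which link kinesin-1 to cargo, Klc1 and Klc3 fell and Klc4 rose in Spc against USg. Of the 5 genes tested of the list of light chains and accessory subunits, 2 rose (Klc4 and Kifap3) and 2 fell, beside 17.9% and 16.6% of all genes. Klc1 was at 194 and 101 CPM in USg, 187 and 115 in DSg, and 44.5 and 51.4 in Spc, a change of -1.62 ± 0.41 against USg (adjusted p = 0.0155). Klc4 was at 12.7 and 29.9 CPM in USg, 13.3 and 28.8 in DSg, and 58.5 and 61.0 in Spc, a rise of 1.46 ± 0.49 against USg (adjusted p = 0.0479). The ratio of Klc1 to Klc4 counts was 15.2 and 3.38 in USg, 14.0 and 3.99 in DSg, and 0.761 and 0.843 in Spc, lower in Spc than in any library of the line. Klc3, a light chain known from the sperm tail, was at 8.10 and 18.2 CPM in USg, 6.87 and 8.89 in DSg, and 3.55 and 1.09 in Spc (-2.50 ± 0.69 against USg, adjusted p = 0.023). Klc1 was lost without USg 1 (0.0616), Spc 1 (0.116) or Spc 2 (0.071). Klc4 was lost without USg 1 (0.12), DSg 1 (0.0571), Spc 1 (0.0938) or Spc 2 (0.106), and also with a filter of 5 CPM (0.0516), scaling by the upper quartile (0.0602) or scaling by total counts (0.0824). Klc3 was lost without USg 2 (0.137) or Spc 2 (0.159).

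Of 13 adaptors that join kinesins to cargo, 2 (15.4%) rose and 1 (7.69%) fell in Spc against USg, beside 17.9% and 16.6% of all genes. Spag9 (JIP4), a scaffold that binds kinesin-1, rose from 125 and 63.0 CPM in USg and 222 and 227 in DSg to 621 and 659 in Spc. Its change was 2.77 ± 0.38 against USg (adjusted p = 9.68e-04), kept in all 18 alternatives. Plekhm2 (SKIP), which ties lysosomes to kinesin-1, was at 9.26 and 10.9 CPM in USg, 24.6 and 24.0 in DSg, and 26.0 and 25.0 in Spc (1.33 ± 0.36 against USg, adjusted p = 0.0203). Trak1, the adaptor of mitochondria, fell from 69.5 and 94.9 CPM in USg and 82.0 and 112 in DSg to 41.6 and 41.4 in Spc (-0.99 ± 0.33 against USg, adjusted p = 0.0461). The Plekhm2 change was lost without Spc 1 (0.19) or Spc 2 (0.154), and that of Trak1 without USg 2 (0.168), DSg 1 (0.0544), Spc 1 (0.361) or Spc 2 (0.373), with total-count scaling (0.0621) and without a filter (0.0874).

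**Figure D5:**
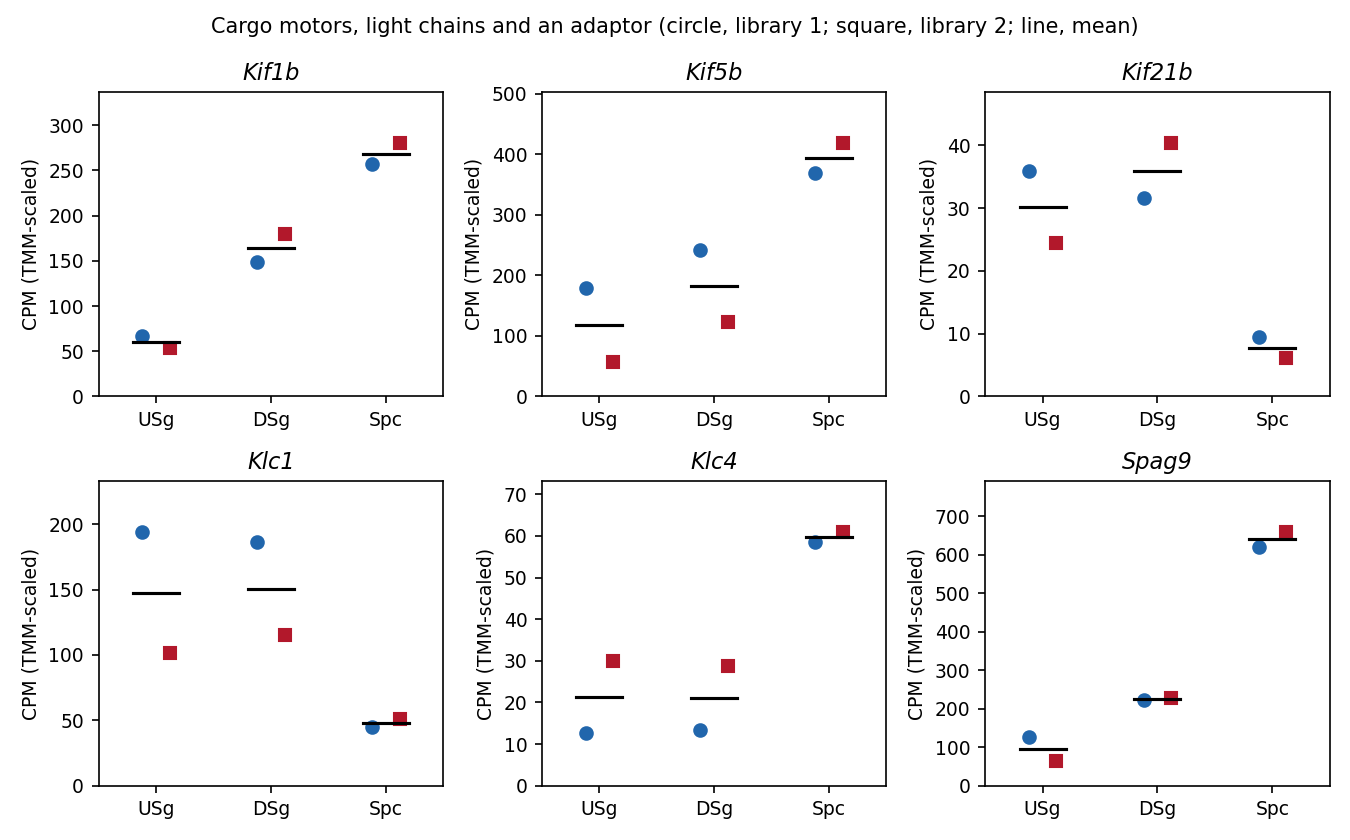
Levels of the cargo motors Kif1b, Kif5b and Kif21b, the light chains Klc1 and Klc4 and the adaptor Spag9 in TMM-scaled CPM (y axes, from 0) by group (x axes). Circles are library 1, squares library 2 and lines the mean of 2. Kif1b steps up from 54.0 and 66.4 CPM in USg to 257 and 281 in Spc, Klc1 is lowest and Klc4 highest in Spc, and library 1 exceeds library 2 for Kif5b and Klc1 in both groups of the line.

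Kif21b, a motor that also limits microtubule growth and is best known from neurons and immune cells, was at 35.9 and 24.4 CPM in USg, 31.5 and 40.4 in DSg, and 9.46 and 6.10 in Spc. Both Spc libraries were below all of the line, at -1.94 ± 0.41 against USg (adjusted p = 0.00719) and -2.20 ± 0.41 against DSg (adjusted p = 0.00578). Without Spc 2 these became 0.103 and 0.0746. Kifc3, a motor that walks to the minus end and acts at cell junctions, was at 103 and 177 CPM in USg, 57.8 and 63.3 in DSg, and 56.2 and 38.8 in Spc. It was highest in both USg libraries, with -1.57 ± 0.37 in Spc (adjusted p = 0.0119, or 0.192 without Spc 2) and -1.21 ± 0.37 in DSg (adjusted p = 0.129). Kif1c, a kinesin-3 motor of vesicles and mRNA, was at 142 and 262, 179 and 227, and 100.1 and 80.8 CPM in USg, DSg and Spc. Its changes of -1.16 ± 0.36 against USg (adjusted p = 0.0366) and -1.17 ± 0.36 against DSg (adjusted p = 0.044) were lost with most single libraries left out. Against USg the call was lost without USg 2 (-0.64, 0.226), DSg 1 (0.0598), DSg 2 (0.0542), Spc 1 (0.165) or Spc 2 (0.330), and with only the 4 libraries compared (0.0508). Against DSg it was lost without DSg 1 (0.119), DSg 2 (0.169), Spc 1 (0.249) or Spc 2 (0.407), and without a filter (0.0903).

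The other cargo motors were not called in any comparison. Kif13b, a kinesin-3 relative, lay between 150.3 and 209 CPM in all libraries, with -0.10 ± 0.30 in Spc against USg (adjusted p = 0.818). Kif16b, a motor of early endosomes, was at 64.4 and 61.3 CPM in USg, 83.2 and 69.2 in DSg, and 84.9 and 95.8 in Spc (0.52 ± 0.30 against USg, adjusted p = 0.203). Kif13a, which carries recycling endosomes, was at 44.1 and 45.1 CPM in Spc and at 58.9 to 79.7 in the line. Kifc2 ranged from 13.5 to 42.6 CPM, with library 2 above library 1 in both groups of the line.

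Cytoplasmic dynein, with its cofactor dynactin, is the main motor that runs towards the minus end. In this list, 7 of 28 genes (25.0%) rose and 4 (14.3%) fell in Spc against USg, beside 17.9% and 16.6% of all genes. Against DSg, 5 (17.9%) rose and 0 fell, beside 14.8% and 11.7%. Dynactin subunits were called in both directions. Actr1a was at 32.0 and 35.4 CPM in USg and 220.3 and 221 in Spc (2.70 ± 0.30, adjusted p = 4.03e-04), and Dctn2 at 69.5 and 86.0 in USg and 249 and 268 in Spc (1.73 ± 0.30, adjusted p = 0.00283). Dctn3 went from 17.7 and 36.1 CPM to 85.3 and 108 (1.82 ± 0.46, adjusted p = 0.0149). Dctn4 and Dctn6 fell, from 142 and 87.8 to 49.5 and 40.3 CPM (-1.35 ± 0.40, adjusted p = 0.0304) and from 122 and 201 to 78.4 and 81.2 CPM (-1.02 ± 0.34, adjusted p = 0.0480). Both were named after their values were seen. Dctn4 was lost without USg 1 (0.110), Spc 1 (0.125) or Spc 2 (0.246). Dctn6 was lost without USg 2 (-0.60, 0.278), DSg 1 (0.0653), DSg 2 (0.0590), Spc 1 (0.351) or Spc 2 (0.330), without a filter (0.0698) and with only the 4 libraries compared (0.0533). Dynein light chains were also called in both directions. Dynll2 fell from 193 and 250 CPM in USg to 78.0 and 62.9 in Spc (-1.65 ± 0.40, adjusted p = 0.0134). Dynll1 fell from 238 and 539 CPM to 184 and 111 (-1.40 ± 0.47, adjusted p = 0.0468). Dynlrb2 rose on few counts, from 0.386 and 0.534 CPM to 3.94 and 4.14 (3.00 ± 0.93, adjusted p = 0.0353). For these light chains the alternatives are not given. The light chain Dynlt3 rose from 3.09 and 3.21 CPM in USg to 32.7 and 28.5 in Spc (3.27 ± 0.47, adjusted p = 0.00118), kept in all 18 alternatives. Dynlt3 was also the 1 gene of this list called in DSg against USg, at 25.5 and 14.0 CPM in DSg (2.62 ± 0.47, adjusted p = 0.0298). That call was lost without USg 2 (0.0535), DSg 1 (0.120) or DSg 2 (0.144), with limma-voom (0.0714) and with only the 4 libraries compared (0.104).

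Kif26a, an atypical kinesin without motor activity that dampens GDNF and Ret signalling in enteric neurons, had the largest log2 fold change of the 32 genes in Spc against USg. It was at 74.5 and 225 CPM in USg, 35.6 and 87.0 in DSg, and 22.7 and 9.58 in Spc. The USg and DSg libraries overlapped and both Spc libraries were lowest, although replicates differed more than 2-fold in each group. The change in Spc against USg was -3.22 ± 0.68 (9.30-fold, adjusted p = 0.00684) and was kept in all 18 alternatives. Against DSg it was -1.93 ± 0.65 and just outside the threshold (adjusted p = 0.0582), though called in 9 of 18 alternatives, DESeq2 among them, and DSg against USg gave -1.29 ± 0.63 (adjusted p = 0.300). Its relative Kif26b was at 11.2 and 8.55 CPM in USg, 9.29 and 22.9 in DSg, and 12.2 and 7.18 in Spc, with -0.01 ± 0.55 in Spc against USg (adjusted p = 0.992). Kif12 had few counts, with 8 and 6 counts in USg, 2 and 20 in DSg, and 6 and 9 in Spc. Kif12 and Kif26b were both highest in DSg 2, at 5.39 and 22.9 CPM, the library in which olfactory receptor genes had counts most widely (95th percentile 2.69 CPM), and the part of this background in their levels was not tested.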

How the data were processed

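The authors deposited raw counts by gene symbol, as their values (whole numbers whose sum differs between columns) show. The submitters' processing notes name featureCounts with Subread 1.4.6, STAR 2.5.3a, edgeR 3.2.4 and other tools, and the builds rn6 and rn5. Which aligner, build, annotation and strand setting gave the counts is not given in the sources used here, so values of overlapping genes are uncertain. In RefSeq (GRCr8), 20 of the 32 kinesin genes overlap another annotated gene, and 8 overlap a gene of the table. The 2 anti-Foxa2 ChIP samples of the series were not analysed.

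Genes were filtered with filterByExpr (minimum count 10, minimum total count 15), which kept 12210 of 16764 symbols. Counts were scaled with TMM factors and fitted in 1 model of the 3 groups with edgeR 4.0.16 (R 4.3.3; limma 3.58.1), at 3 residual degrees of freedom, and tested with the two-sided quasi-likelihood F-test. The adjusted p is the Benjamini-Hochberg value over all 12210 genes, with a threshold of 0.05. Each SE was obtained by dividing the size of the log2 fold change by the root of its F statistic. Levels are TMM-scaled CPM, given per library; no protein or transcript lengths were used, so the order of levels between genes cannot be read. The code was tested on simulated data. Each group has 2 libraries, which limits the precision. Alternatives, 17 planned and 1 chosen after seeing the data, changed the scaling, filter, test (DESeq2 1.42.0, limma-voom), libraries and block. Replicate numbers were not treated as pairs.

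The members, their roles and the gene lists were chosen with earlier results of these data known. Printed in full are the members called in DSg against USg, up to 4 called members of each role with the largest change in Spc, and up to 2 uncalled members of each role chosen by mean CPM; of related lists, up to 4 called members with at least 5 CPM. Further members and the genes that overlap them are given with values beyond that rule. Promoters are those of RefSeq on GRCr8, given for 24 members and absent for Kif2b, Kif19, Kif26a, Kifc3, Kif21b, Kif13b, Kifc2 and Kif5a.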

Additional observations from a re-analysis of the deposited data

How the results depend on the processing

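The counts of kinesin genes called moved with several settings. They stayed within 1.5 times of the reported ones with RLE scaling, with DESeq2 and without ribosomal RNA genes. In DSg against USg, where 1 rose and 1 fell, the number higher was 0 without a filter, 0 in a test against a 2-fold change, 0 with only the 4 libraries compared, 8 without USg 1 and DSg 1 together (an alternative chosen after seeing the data) and 0 to 2 with 1 library left out. The number lower was 0 with upper quartile scaling, total-count scaling, a filter of 5 CPM, limma-voom, the 2-fold test or the 4 libraries, 3 without a filter, 6 without USg 1 and DSg 1, and 0 to 4 with 1 library left out. In Spc against USg, 3 rose and 3 fell in the 2-fold test, and with 1 library left out 4 to 6 rose and 1 to 8 fell. In Spc against DSg, the number higher was 2 without a filter, 4 with the 4 libraries, 8 without USg 1 and DSg 1, and 1 to 4 with 1 library left out. The number lower was 10 with upper quartile scaling, 3 without a filter, 1 in the 2-fold test, 11 with the 4 libraries, 12 without USg 1 and DSg 1, and 0 to 9 with 1 library left out. The cause was not tested.

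With replicate number as a block, 2 kinesin genes rose and 9 fell in Spc against DSg, 7 and 8 against USg, and 1 and 1 in DSg against USg. Same-numbered libraries deviated from their group means with correlations of 0.25 (USg and DSg), -0.27 (USg and Spc) and 0.01 (DSg and Spc). USg 1 and DSg 1 also had the highest shares of ribosomal RNA, at 7.81% and 12.4%. The numbers were taken as names only, and whether same-numbered libraries of the line belong together was not tested.

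Signs of changes that were not called turned in some settings. In DSg against USg they were Kif13b (0.060 with upper quartile scaling, 0.066 with total-count scaling), and, with 1 library left out, Kif13b (-0.45 to 0.080), Kif12 (-1.19 to 1.37), Kif18b (-1.78 to 0.078), Kif15 (-0.023 to 0.59), Kif16b (-0.050 to 0.41) and Kif26b (-0.068 to 1.04). In Spc against USg they were Kif26b with limma-voom (0.0039), Kif26b (0.16), Kif11 (0.30) and Kif12 (0.50) without USg 1 and DSg 1, and, with 1 library left out, Kif26b (-0.46 to 0.33), Kif11 (-0.67 to 0.29), Kif12 (-0.95 to 0.50), Kif13b (-0.35 to 0.16) and Kif18b (-1.67 to 0.17). In Spc against DSg they were Kif13b (-0.22 with upper quartile scaling, -0.20 with total-count scaling, -0.038 with the 5 CPM filter, -0.032 with 4 libraries, -0.022 without USg 1 and DSg 1), and, with 1 library left out, Kif12 (-1.59 to 0.92) and Kif26b (-1.07 to 0.060). Upper quartile and total-count scaling moved the median of all genes by 0.15 each in DSg against USg, and by -0.22 and -0.19 in Spc against DSg. As CPM of the whole library, kinesin genes summed to a mean of 3415 in USg and 3198 in Spc, against 3502 and 3366 with TMM factors.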
